A study of Mus musculus with 8 samples.

Results

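Fetal cardiac macrophages were followed in embryonic mouse ventricles through a list of 36 macrophage and leukocyte genes, out of 53465 genes in the expression table. The list was matched to the table by gene symbol. RNA-seq of whole heart ventricles at embryonic day 15.5 was compared between 4 wild-type (WT) libraries and 4 libraries labelled Nrg-1flox;Cdh5-CreERT2. In the labelled genotype, a Cre recombinase that needs tamoxifen to act is driven from the promoter of the endothelial cadherin gene Cdh5, and the floxed target is Nrg1, which encodes the growth factor neuregulin-1. The comparison asks how endothelial loss of Nrg1 changes the ventricle, here in its resident immune cells. The driver acts in endothelial cells, so Nrg1 transcripts of other cell types would remain, and the time and dose of tamoxifen, and whether the WT embryos received it or carried Cre, are not given in the sources used here. The labels give 1 ventricle sample per library, and p-values measure only the spread between these samples.

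Macrophages enter the heart before birth. The first of them descend from yolk sac progenitors that bud from hemogenic endothelium, and later ones come by way of fetal liver monocytes. They depend on the receptor Csf1r and its ligands Csf1 and Il34, and their identity is set by the transcription factors PU.1, encoded by Spi1, and Irf8. In the fetal heart they engulf dying cells and are found near growing coronary and lymphatic vessels. Resident macrophages of the fetal type are known for Lyve1, Folr2, Timd4, Mrc1 and Cd163, and they make the complement protein C1q.

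The libraries held 16761763 to 24144272 expected counts, which are read counts estimated by dividing reads that match several genes. Levels are given as CPM, in which every library is brought to the same size with TMM factors that lay between 0.9884 and 1.015. Nrg1, the targeted gene, measured 5.46, 4.64, 4.08 and 5.31 CPM in the WT group (libraries 1 to 4) and 6.80, 6.35, 6.14 and 5.36 CPM in the other group. It was thus not lower where it should be deleted (log2 fold change 0.34, SE 0.12, edgeR's adjusted p = 0.311), and the second group is called the labelled-mutant libraries from here on. Counts were given per whole gene and exons were not examined, so a loss of only the floxed part of Nrg1 cannot be seen here. Over 100 counts of both Xist, which female cells make, and the summed Y-linked genes were found in 7 of the 8 libraries, although a library is labelled as a single ventricle sample. The groups differed in this content: the summed Y-linked genes were at 69.3 to 171 CPM in WT against 42.9 to 120 CPM in the labelled-mutant group, and Xist at 0.192 to 206 CPM against 103 to 327 CPM. All 4 Y-linked genes were below 0 (median log2 fold change -0.76) without a call, and with their summed level as a covariate 16 genes of the whole table were called in place of 81. The sum of 10 genes of cardiomyocytes, the muscle cells of the ventricle, was 45000 to 51300 CPM, and the T cell genes Cd3e and Cd3d were at 0 in all 8 libraries.

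No macrophage or leukocyte gene passed the test between the groups. Of the 36, 32 passed the filter on low counts, and 0 of these 32 passed a false discovery rate (FDR) of 0.05 by the quasi-likelihood test of edgeR, where 0.526% of all 15388 tested genes did (0.312% higher and 0.214% lower in the labelled-mutant group). DESeq2 and limma voom also called 0. At an unadjusted p below 0.05 there was 1 gene, F13a1, which is 3.12% of the tested members against 10.5% of all genes (5.13% higher and 5.41% lower). The groups overlapped in every tested member, while 6.05% of all genes did not overlap (3.05% higher). The log2 fold change (labelled-mutant against WT) was above 0 for 19 and below 0 for 13 members, where 49.4% of all genes were above 0. It ranged from -0.35 (Cd14) to 0.51 (Ccl6), with a median of 0.04 beside -0.00123 over all genes.

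These data set limits on what could have been missed. The members were lowly expressed, with a median percentile of 27.9 among tested genes by level, and their median SE of 0.158 on the log2 scale compares with 0.0649 over all genes. The 95% confidence interval held 0 for 31 of the 32 genes and lay inside -1 to 1 for 29, so that a change of 2-fold was outside the interval of those genes. It lay inside -0.5 to 0.5 for 18. In whole ventricle, fewer macrophages and less RNA per macrophage cannot be told apart.

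**Figure D1:**
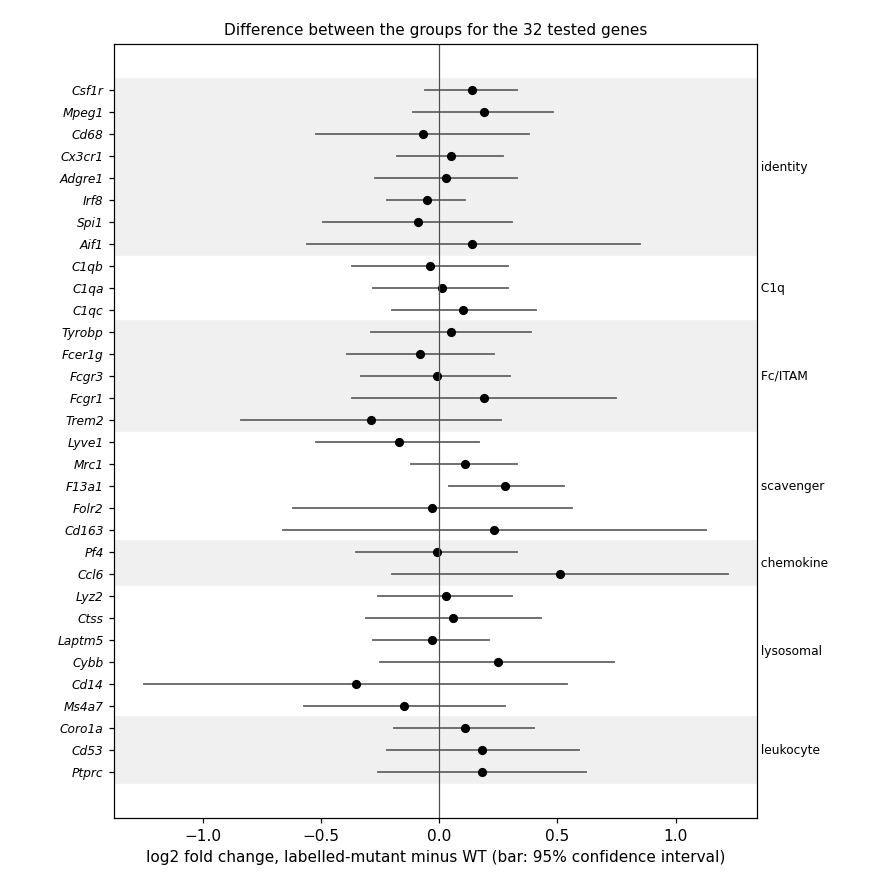
Log2 fold changes of the 32 tested genes (horizontal axis, labelled-mutant minus WT, in log2 units), grouped by role on the vertical axis. Points are the fitted values and bars the 95% confidence intervals, and the bar of F13a1, from 0.04 to 0.53, is the only one of 32 that does not reach 0.

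The 8 genes of macrophage identity were present in every library. Csf1r, the receptor for the growth factors that keep macrophages alive, was at 24.5, 31.3, 30.6 and 33.6 CPM in WT, and at 29.8, 31.8, 33.0 and 38.1 CPM in labelled-mutant libraries. WT library 1 was the lowest and labelled-mutant library 4 the highest, and the other 6 lay between 29.8 and 33.6 CPM. The log2 fold change was 0.14 (SE 0.0908, FDR 0.648). Mpeg1, which encodes the pore-forming protein perforin-2, was at 12.9, 19.6, 22.0 and 19.5 CPM in WT, and at 17.3, 21.1, 21.9 and 24.2 CPM in labelled-mutant libraries, with the same libraries at both ends (log2 fold change 0.19, SE 0.137, FDR 0.693).

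The pair of transcription factors differed in spread and also in depth, with 200 to 280 counts per library for Irf8 and 40 to 73 for Spi1. The part of depth in the spread was not tested. Irf8 was the most even of the tested members, at 10.7 to 12.4 CPM in WT against 10.2 to 11.8 CPM in the labelled-mutant group. Its highest library was only 1.16-fold above its lowest in WT and 1.15-fold in the labelled-mutant group, and its log2 fold change was -0.05 (95% confidence interval -0.22 to 0.11). Spi1 varied 1.32-fold and 1.75-fold, from 2.41 to 3.17 CPM and from 2.02 to 3.53 CPM (log2 fold change -0.09, FDR 0.924). Cx3cr1, the fractalkine receptor of fetal macrophages, was at 12.4 ± 0.914 CPM on average in WT against 12.8 ± 2.06 CPM in the labelled-mutant group (SD, n = 4 each). Adgre1, which encodes F4/80, the lysosomal glycoprotein gene Cd68 and the actin-binding protein gene Aif1 had log2 fold changes of 0.03, -0.07 and 0.14, none past the test.

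The ligands were measured in the same tissue. Csf1 and Il34 were singled out after their values were seen, as partners of Csf1r. Csf1 was at 15.3 ± 1.09 CPM on average in WT against 15.5 ± 1.51 CPM in the labelled-mutant group (SD, n = 4 each), a log2 fold change of 0.02 (SE 0.0805, FDR 0.971). Il34 held only 1 to 10 counts per library and did not pass the filter.

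C1q, which opens the classical complement pathway and tags dying cells, is built from chains A, B and C, and their genes lie side by side on the minus strand of GRCm38 chromosome 4. C1qb spans 136880129 to 136886187, C1qc 136889804 to 136893065 and C1qa 136895917 to 136898803. C1qb was at 11.8, 18.6, 20.6 and 15.4 CPM in WT, and at 13.5, 15.0, 16.3 and 20.1 CPM in labelled-mutant libraries. C1qa was at 9.44, 12.2, 13.7 and 12.8 CPM in WT, and at 10.1, 11.4, 11.9 and 15.2 CPM in labelled-mutant libraries. In both genes WT library 1 was the lowest of all 8, labelled-mutant library 1 the next, and the groups covered nearly the same range. C1qc was at 13 ± 1.92 CPM in WT and, in the labelled-mutant group, at 14 ± 2.96 CPM (SD, n = 4 each). The log2 fold changes were -0.04, 0.01 and 0.10 for C1qb, C1qa and C1qc, with FDR of 0.964, 0.995 and 0.876. The ratio of C1qa to C1qc was steadier than either gene, at 0.919, 0.920, 0.932 and 0.933 in WT and 0.952, 0.738, 0.944 and 0.881 in labelled-mutant libraries. That ratio had a coefficient of variation of 7.72% over the 8 libraries, against 15.5% for C1qa alone, and labelled-mutant library 2 had the lowest ratio. The ratio of C1qc to C1qb was less steady, at 12.7% against 17.6% for C1qc alone.

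Whether promoter sequence has a part in the variation of the chains was not tested. The promoters of C1qb and C1qc are shown as a description. They were taken from RefSeq on GRCm38.p6, where 27 of the 36 members have an entry (all but Adgre1, Csf1r, C1qa, Tyrobp, Cd14, Lyve1, Ccl4, Ccl24 and Spi1). Each line gives the 250 bases before the RefSeq transcription start, 5′ to 3′ on the gene's own (minus) strand. They lie at chr4:136886201-136886450 for C1qb and chr4:136892915-136893164 for C1qc. The RefSeq start of C1qc lies within the gene span given above, so part of its 250 bases is inside that span. Capitals mark AGGAAGT or its reverse complement ACTTCCT, a purine-rich word with the GGAA core that PU.1 and other ETS factors are known to bind.
C1qb: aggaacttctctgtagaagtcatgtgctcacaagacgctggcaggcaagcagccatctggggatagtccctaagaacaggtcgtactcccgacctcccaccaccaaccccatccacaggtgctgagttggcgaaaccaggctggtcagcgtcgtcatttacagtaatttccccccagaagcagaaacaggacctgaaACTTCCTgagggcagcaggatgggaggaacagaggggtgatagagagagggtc
C1qc: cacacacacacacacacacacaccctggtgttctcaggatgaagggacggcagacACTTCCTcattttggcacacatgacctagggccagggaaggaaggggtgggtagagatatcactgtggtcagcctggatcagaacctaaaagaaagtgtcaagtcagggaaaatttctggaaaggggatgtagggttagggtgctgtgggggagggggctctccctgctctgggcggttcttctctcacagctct
The word was found on either strand in the windows of 12 of the 27 members (44.4%) and of 10.7% of 27025 gene symbols, each window running from 250 bases before to 50 bases after the start. The longer GAGGAAGT, which contains it, was in 18.5% of members and 3.69% of all symbols. CCGGAAGT was in 1 member (3.7%), Ms4a7, against 4.31% of all symbols. TATAAA was in 14.8% and 15.7%. A match is a description of the letters and not a site of binding, and the words were chosen with the data known.

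Fc receptors and their adaptors signal through ITAM motifs, tyrosine-based sequences that recruit the kinase Syk. Tyrobp, the adaptor DAP12 used by Trem2, was at 3.24, 5.61, 5.30 and 4.44 CPM in WT, and at 4.45, 4.74, 4.66 and 5.41 CPM in labelled-mutant libraries (log2 fold change 0.05, SE 0.157). Fcer1g, the common gamma chain of Fc receptors, was at 3.65, 4.15, 4.91 and 4.79 CPM in WT, and at 3.59, 4.78, 3.59 and 4.65 CPM in labelled-mutant libraries (log2 fold change -0.08, SE 0.144). The groups overlapped in both adaptors. The lipid receptor gene Trem2 was at 3.28 ± 1.19 CPM on average in WT against 2.68 ± 0.662 CPM in the labelled-mutant group (SD, n = 4 each). Its log2 fold change of -0.29 had an interval of -0.84 to 0.26, and it moved between -0.457 without WT library 1 and -0.0409 without WT library 3. The high-affinity IgG receptor gene Fcgr1 (0.19) and the low-affinity gene Fcgr3 (-0.01) did not pass either.

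**Figure D2:**
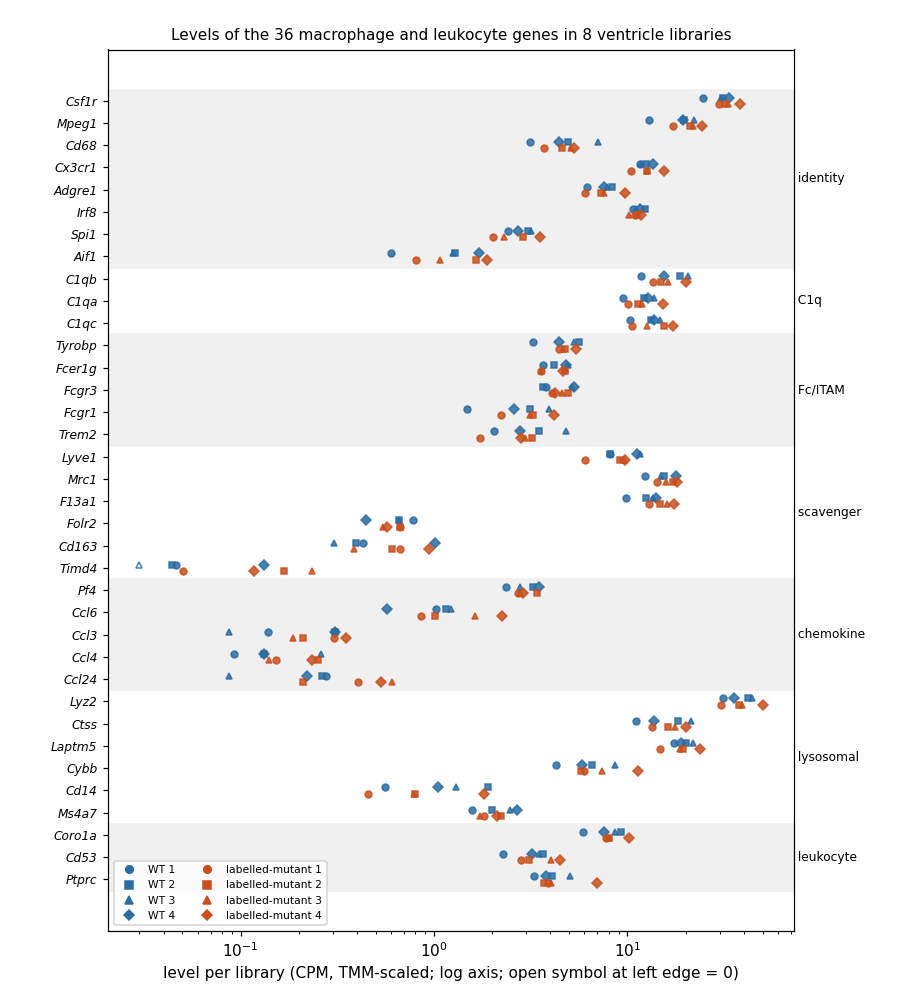
Level of each of the 36 genes in each of the 8 libraries (horizontal log axis, CPM), grouped by role. Blue marks are WT and orange marks labelled-mutant libraries, with a shape for each library number, and an open mark at the left edge stands for 0. The colours overlap in every tested gene. Of the 32 tested genes, WT library 1 is the lowest of all 8 libraries in 18. Labelled-mutant library 4 is the highest of all 8 in 18, not always in the same genes.

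Of the scavenger receptors and resident macrophage genes, F13a1 differed most. It encodes the A subunit of coagulation factor XIII, which crosslinks fibrin and which tissue macrophages make, and it lies on the minus strand of chromosome 13 from 36867178 to 37050244. F13a1 was at 9.81, 12.5, 13.6 and 14 CPM in WT, and at 12.9, 14.7, 16 and 17.4 CPM in labelled-mutant libraries. Labelled-mutant libraries 2 to 4 were above every WT library, and labelled-mutant library 1 lay among the WT values. The means were 12.5 ± 1.90 and 15.2 ± 1.90 CPM (SD, n = 4). The log2 fold change of 0.28 (SE 0.114, 95% confidence interval 0.04 to 0.53) did not pass over all genes in edgeR (FDR 0.399). Its log2 fold change was above 0 in each of 18 alternatives, from 0.185 without WT library 1 to 0.39 once the Y-linked level was a covariate, with FDR between 0.0976 and 0.643. Set against Csf1r, F13a1 was at 0.401, 0.398, 0.445 and 0.418 of its level in WT and at 0.433, 0.464, 0.484 and 0.456 in labelled-mutant libraries. These ratios, chosen after the values were seen, also overlapped.

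RefSeq gives more than 1 start for F13a1. The window of the outermost, at the annotated end of the gene, holds 0 matches of the word described above, and that of the start within the gene holds 2. The upstream sequence of the latter is shown, since this was the member with the smallest p, and it was chosen for its matches. The 250 bases at chr13:37049214-37049463, minus strand, hold 1 of these matches, in capitals, and the other lies after the start.
F13a1: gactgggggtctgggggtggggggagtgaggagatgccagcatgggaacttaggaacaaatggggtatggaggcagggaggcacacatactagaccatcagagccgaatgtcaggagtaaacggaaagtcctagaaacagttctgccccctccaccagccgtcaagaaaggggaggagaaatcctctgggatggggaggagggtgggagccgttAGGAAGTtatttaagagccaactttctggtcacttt

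Lyve1 and Mrc1 mark resident macrophages and are also made by lymphatic and other endothelial cells. Lyve1, a hyaluronan receptor gene, was at 8.09, 8.12, 11.6 and 11.2 CPM in WT, and at 6.07, 9.19, 9.65 and 9.71 CPM in labelled-mutant libraries. Labelled-mutant library 1 was the lowest of all 8, and the other 3 of its group lay within the WT range (log2 fold change -0.17, SE 0.159, FDR 0.779). Mrc1, the mannose receptor gene, was at 12.4, 15.4, 15.0 and 17.8 CPM in WT, and at 14.2, 17.2, 15.8 and 18.1 CPM in labelled-mutant libraries (log2 fold change 0.11, SE 0.103, FDR 0.797). The ratio of Mrc1 to Csf1r stayed between 0.476 and 0.541 in all 8 libraries. Its coefficient of variation was 4.99% against 12.2% for Mrc1 alone, the lowest of the ratios examined. Other pairs were less steady. Lyve1 to Csf1r had 18.6% against 19.4% for Lyve1 alone, and Fcer1g to Tyrobp 15.9% against 13.7% for Fcer1g alone. Of lymphatic endothelial genes, 0 of 5 tested were called, and the nearest was Ccl21a, a chemokine gene of lymphatic vessels (log2 fold change -0.42, FDR 0.0597).

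The other resident macrophage genes were scarce. Cd163, the haemoglobin scavenger receptor gene, held 7 to 23.1 counts per library, and Folr2, a folate receptor gene, 9.66 to 16.8. Their log2 fold changes were 0.23 and -0.03, with intervals of -0.66 to 1.13 and -0.62 to 0.56. Timd4, a phosphatidylserine receptor gene of long-lived resident macrophages, held 1, 1, 0 and 3 counts in WT and 1, 4, 5 and 2 in labelled-mutant libraries. Its highest level, 0.233 CPM, is close to the 0.179 CPM that 3 counts make in the smallest library, so no difference was detectable at this depth.

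Of the chemokine genes only Pf4 and Ccl6 passed the filter. Pf4, which tissue macrophages share with platelets, was the highest of the 5, at 2.36, 3.27, 2.78 and 3.51 CPM in WT, and at 2.73, 3.40, 2.80 and 2.88 CPM in labelled-mutant libraries (log2 fold change -0.01, SE 0.158). Platelet genes were present as well: all 10 on the megakaryocyte and platelet list were detected in every library, at a summed 23.0 to 29.1 CPM in WT against 23.6 to 26.5 CPM in the labelled-mutant group. Ccl6 had the largest log2 fold change of the tested members. It was at 1.02, 1.15, 1.22 and 0.571 CPM in WT, and at 0.859, 1.01, 1.63 and 2.24 CPM in labelled-mutant libraries, and the groups overlapped. The log2 fold change of 0.51 (SE 0.327, interval -0.20 to 1.22, FDR 0.634) was 0.239 without labelled-mutant library 4.

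The remaining chemokines did not pass the filter. Ccl3 held 3, 7, 2 and 7 counts in WT and 6, 5, 4 and 6 in labelled-mutant libraries, and Ccl4 held 2, 3, 6 and 3 and then 3, 6, 3 and 4. Both are inflammatory chemokines that attract monocytes and lymphocytes, and neither exceeded 7 counts. Ccl24, an eotaxin gene, held 6, 6, 2 and 5 counts in WT and 8, 5, 13 and 9 in labelled-mutant libraries. Fitted without a filter its log2 fold change was 1.01 (FDR 0.675 in edgeR), on 2 to 13 counts.

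The lysosomal and antimicrobial genes held the most abundant member. Counts were divided by exonic length and rescaled so that each library sums to 1000000. On this per-length scale, Lyz2 was at a mean of 83.3, followed by C1qb at 42.7, Ctss at 34.2, C1qa at 32.9 and Tyrobp at 20.0. Ptprc was at 0.670, Cd163 at 0.307 and Timd4 at 0.129 by the same measure. Lyz2, the myeloid lysozyme gene, was at 31.2, 42.2, 44.2 and 35.7 CPM in WT, and at 30.4, 37.6, 39.1 and 50.0 CPM in labelled-mutant libraries (log2 fold change 0.03, SE 0.13). The first library of each group was its lowest. Ctss, which encodes the protease cathepsin S, was at 11.1, 18.3, 21.2 and 13.7 CPM in WT, and at 13.4, 16.3, 17.7 and 20.0 CPM in labelled-mutant libraries (log2 fold change 0.06, SE 0.171). The WT libraries of Ctss spread wider, 1.91-fold from lowest to highest, than the labelled-mutant libraries, 1.48-fold.

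Lyz2 was the highest member, so the 250 bases before its RefSeq start are shown as well, with the match of the same word in capitals. They lie at chr10:117282273-117282522, minus strand, and in part within the annotated gene, which ends at 117282321.
Lyz2: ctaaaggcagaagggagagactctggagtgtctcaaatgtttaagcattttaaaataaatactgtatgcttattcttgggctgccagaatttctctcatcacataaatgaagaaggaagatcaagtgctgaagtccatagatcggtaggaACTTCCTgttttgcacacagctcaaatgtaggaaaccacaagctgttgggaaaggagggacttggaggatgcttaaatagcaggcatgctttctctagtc

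The other members of this group gave no call. Cybb, the X-linked catalytic subunit of the phagocyte NADPH oxidase, was at 6.32 ± 1.83 CPM on average in WT against 7.6 ± 2.57 CPM in the labelled-mutant group (SD, n = 4 each). Laptm5, a lysosomal membrane protein gene of blood cells, was at 19.6 ± 1.83 and 19.2 ± 3.65 CPM (SD, n = 4). Cd14, the co-receptor for bacterial lipopolysaccharide, had the lowest log2 fold change (-0.35, interval -1.25 to 0.54) and varied most within a group, 3.42-fold in WT and 4.01-fold in labelled-mutant libraries on 9 to 43 counts. Without labelled-mutant library 4 it was at -0.806, with FDR of 0.431. Ms4a7, a membrane protein gene of macrophages, was at -0.15.

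The pan-leukocyte genes were all above 0 without passing. Coro1a, an actin regulator of blood cells, was at 5.92, 9.32, 8.65 and 7.6 CPM in WT, and at 7.79, 8.01, 8.07 and 10.2 CPM in labelled-mutant libraries (log2 fold change 0.11, SE 0.136). Cd53, a tetraspanin gene, was at 2.27, 3.66, 3.48 and 3.21 CPM in WT, and at 2.83, 3.10, 4.01 and 4.47 CPM in labelled-mutant libraries (log2 fold change 0.18, SE 0.186). Labelled-mutant library 4 was the highest for both. Ptprc, which encodes CD45, was at 4.04 ± 0.740 CPM on average in WT against 4.64 ± 1.55 CPM in the labelled-mutant group (SD, n = 4 each). Its log2 fold change of 0.18 turned to -0.0669 without labelled-mutant library 4.

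The median member varied more between libraries of a group than between the groups. WT library 1 was the lowest of the WT libraries for 28 of the 32 tested members (87.5%), where it was so for 23.1% of all genes. Labelled-mutant library 1 was the lowest of its group for 26 members (81.2%, against 23.0% of all genes), and labelled-mutant library 4 was the highest of its group for 26 (81.2%, against 29.7%). Measured from the mean of the 8 libraries, the median member deviated on the log2 scale by -0.356, 0.066, 0.18 and 0.006 for WT libraries 1 to 4. Across the labelled-mutant group it deviated by -0.236, 0.021, 0.013 and 0.313. Over all genes this median was 0.002 to 0.004 in every library. The median coefficient of variation within a group was 19.6% in WT and 17.7% in labelled-mutant libraries.

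The direction of the small shift in the members rested on these libraries. The median log2 fold change of 0.04 was -0.0679 without WT library 1 and -0.0303 without labelled-mutant library 4, with 12 members above and 20 below 0 in either case. Without labelled-mutant library 1 it was 0.129, with 25 above and 7 below. Once the Y-linked level was added as a covariate the median was 0.0978.

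**Figure D3:**
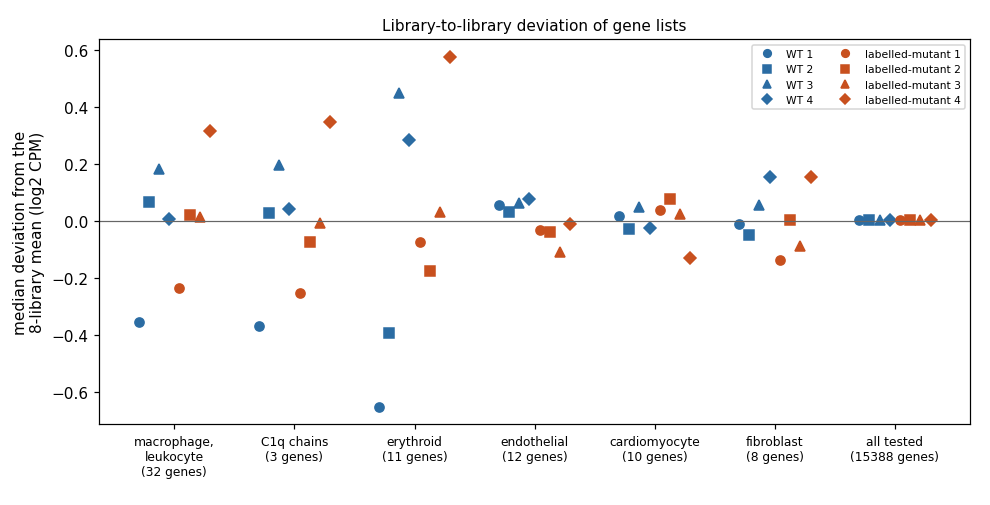
Median deviation of gene lists from the 8-library mean in each library (vertical axis, log2 CPM), with list sizes under the names. Blue marks are WT and orange marks labelled-mutant libraries, with a shape for each library number. The macrophage and leukocyte genes range from -0.356 in WT library 1 to 0.313 in labelled-mutant library 4, while all tested genes stay at 0.002 to 0.004.

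Red cell genes moved with the same libraries at the ends. The 11 tested erythroid genes had median deviations of -0.651, -0.392, 0.446 and 0.283 in WT and -0.073, -0.175, 0.031 and 0.574 in labelled-mutant libraries. Their summed level was 4470 to 9590 CPM in WT against 6070 to 10200 CPM in the labelled-mutant group, with all 12 genes detected in every library. The order was not the same throughout, since WT library 2 was low for erythroid genes and not for macrophage genes. The summed cardiomyocyte genes were at 45000 CPM in labelled-mutant library 4 and at 51000 to 51300 CPM in labelled-mutant libraries 1 to 3. The part of blood content or tissue composition in the macrophage values was not tested. The 12 endothelial genes had median deviations of 0.032 to 0.076 in WT against -0.108 to -0.012 in the labelled-mutant group, which did not overlap, whereas those of the macrophage and leukocyte genes did.

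Lymphocyte and neutrophil genes were scarce. Of 14 lymphocyte genes, 4 were detected in every library, at a summed 10.6 to 11.5 CPM in WT against 9.15 to 10.3 CPM in the labelled-mutant group. Most of this sum was 1 gene, Il2rg, which encodes the common cytokine receptor chain. Il2rg was at 8.97 to 9.82 CPM in WT against 7.63 to 8.39 CPM in the labelled-mutant group. It was the nearest of the list to a call (log2 fold change -0.24, FDR 0.259). Of 12 neutrophil and granule genes, 5 were tested and all 5 were above 0 without a call, including S100a8 (0.75, FDR 0.321), and the summed level of the 12 was 3.37 to 5.27 CPM in WT against 4.71 to 7.53 CPM in the labelled-mutant group. Mast cell genes were at a summed 34.8 to 42.1 CPM and 33.5 to 37.2 CPM, most of it Kit, which other cells also make, with 0 of 5 called. Among monocyte genes, 0 of 3 tested were called and the median log2 fold change was -0.16, though all 3 had an unadjusted p below 0.05 (10.5% of all genes). Vcan, a matrix proteoglycan gene that many other cells of the heart make, was at -0.16 (FDR 0.207), and Ace, which endothelial cells also make, was at -0.34 (FDR 0.286). Plac8, of circulating monocytes, was at 0.81 (FDR 0.283). The groups overlapped in all 3.

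The rest of the macrophage programme was examined through lists of genes outside the 36. With the markers of other cells these held 214 genes, of which 169 were tested and 2 called, Cxcr4 and the cardiac transcription factor gene Nkx2-5, where 0.526% of all tested genes were called. Cxcr4, the receptor for the chemokine Cxcl12 on blood and endothelial cells, was at 12.7, 11.5, 11.6 and 12.4 CPM in WT, and at 8.54, 9.27, 9.51 and 9.65 CPM in labelled-mutant libraries. The groups did not overlap, and Cxcr4 fell by 0.38 on the log2 scale (SE 0.0741, FDR 0.0454). Its FDR stayed below 0.05 in 6 of 18 alternatives and reached 0.265 once the Y-linked level was a covariate, while its log2 fold change lay between -0.401 and -0.338. Nkx2-5 (0.21, FDR 0.0194) passed in 13 of 18, with a log2 fold change between 0.111 and 0.234. The lowest came with GC and length offsets (FDR 0.118), and with the Y-linked covariate its FDR was 0.0898. Of the other chemokine and receptor genes none was called, and Ccr2, the receptor of recruited monocytes, was at 0.30 (FDR 0.63).

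Genes that act beside the members did not pass. The NADPH oxidase partners of Cybb were above 0 in 5 of 5, with 0 called, and Ncf1 alone did not overlap (3.41 ± 0.435 against 4.89 ± 1.27 CPM, SD, n = 4, log2 fold change 0.51, FDR 0.303). Downstream of the ITAM adaptors, 0 of 10 were called. The kinase gene Syk was at 0.12 (FDR 0.521), and the inhibitory phosphatase gene Inpp5d was at -0.24 (FDR 0.467). Of 14 other complement genes tested, 8 were above 0 and 0 called. No call was made among 3 further Fc receptor genes, 5 class II antigen presentation genes, 2 inflammatory cytokine and inflammasome genes or 5 microglia genes.

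Lysosomal and engulfment genes were mostly below 0. All 14 lysosomal genes were below 0 with a median log2 fold change of -0.06, where 50.6% of all genes were below 0, and 5 of 14 had an unadjusted p below 0.05 (10.5% of all genes). None of them passed, and the protease gene Ctsd, with the smallest p, was at 418 ± 11.9 CPM in WT against 384 ± 14.7 CPM in the labelled-mutant group (SD, n = 4 each, FDR 0.188). Gpnmb, a glycoprotein gene of macrophages and pigment cells, was at 9.57, 20.9, 35.7 and 6.28 CPM in WT, and at 6.47, 6.63, 11.1 and 6.30 CPM in labelled-mutant libraries. Its log2 fold change of -1.24 (FDR 0.304) came with overlapping groups, and WT libraries 2 and 3 were the highest. Of 13 engulfment genes 10 were below 0, 5 had an unadjusted p below 0.05 and 0 were called, with the integrin gene Itgav at -0.27 (FDR 0.0765). These genes are made by many cell types of the ventricle.

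Among 11 other transcription factor genes of macrophages 0 were called, with Id3 at -0.13 (FDR 0.127) and Maf at 0.25 (FDR 0.391). Among 9 growth factor and niche genes 0 were called, with the receptor gene Tgfbr2 nearest at -0.14 (FDR 0.0584). Id3 was at a mean of 76.7 CPM in WT and Tgfbr2 at 90.4 CPM, where Spi1 was at 2.84 CPM. Which cells made these transcripts was not tested. In the endothelial list, whose cells carry the Cre driver, 10 of 12 genes were below 0 and 0 called, with Esam at -0.15 (FDR 0.0584). Of these 12, 7 had an unadjusted p below 0.05 (10.5% of all genes) and 5 did not overlap between the groups (6.05% of all genes). No gene was called among 8 fibroblast, 11 erythroid and 9 platelet genes tested either.

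Some members are measured less surely than others. The expected counts were exactly whole, with no tolerance, in all libraries for 28 of the 36 genes. They were whole in none for Csf1r, Lyz2, Fcgr3 and Folr2, whose reads were thus in part shared with other genes. They were not whole in 75% of libraries for Cd163, 62.5% for F13a1 and Cx3cr1, and 37.5% for Ms4a7. Folr2 shares 63.066% of its exonic bases with the antisense gene Gm10602 on the opposite strand, and Csf1r 15.12% with Hmgxb3. Whether strand was used in counting is not given in the sources used here, so the level of Folr2 is uncertain.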

How the data were processed

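Polyadenylated RNA of ventricles was sequenced as single reads of 60 bases from directional libraries. The authors deposited RSEM (1.3.1) expected counts per gene on GRCm38, Ensembl release 91 by the table's name, and the submitters' processing notes also list cutadapt. The aligner is not given in the sources used here. Of the values, 18.1% were not whole, and counts were rounded. Of 53465 identifiers, 53274 were given a symbol from a list of gene names, and 53360 matched GENCODE M21, which gave positions and exon lengths.

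The 8 libraries were compared with edgeR 4.0.16 in R 4.3.3 (filterByExpr by group, TMM, glmQLFit and glmQLFTest, two-sided, group as the only term), with Benjamini-Hochberg adjustment over 15388 genes and FDR below 0.05. Log2 fold changes are labelled-mutant minus WT. Deviations of lists are medians of log2(CPM + 0.1). The fit was tested on simulated data.

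The members, lists and words were chosen with earlier results of these data known, so no set test was made. Per-library values are given for members with FDR or unadjusted p below 0.05, for the 2 members of each role group with the highest level per length, and for members under the filter. From other lists, called genes and up to 3 with the smallest p could be named. Alternatives were other scalings and filters, DESeq2 1.42.0, limma 3.58.1 voom, a replicate block, a covariate for the summed Y-linked level, GC and length offsets (lowess span 0.3), and leaving out each library. Plots were made in Python 3.11.15 (matplotlib 3.10.9).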

Additional observations from a re-analysis of the deposited data

Results flagged for a closer look

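In 7 of 136 groups of 4 values examined, a single library lay far from the other 3 by Dixon's criterion, where chance gives about 6.8. In labelled-mutant library 4, Ptprc measured 6.95 CPM where the rest of its group had 3.69 to 4.01 CPM. Coro1a was at 10.2 CPM in the same library, against 7.79 to 8.07 CPM. Maf was at 21.9 CPM there, against 16.7 to 17.2 CPM. The summed cardiomyocyte genes were also apart in that library, at 45000 CPM against 51000 to 51300 CPM. In labelled-mutant library 1, Lyve1 measured 6.07 CPM where the rest had 9.19 to 9.71 CPM. In labelled-mutant library 3, Gpnmb measured 11.1 CPM where the rest had 6.30 to 6.63 CPM. In WT library 3, H2-Aa measured 1.3 CPM where the other WT libraries had 0.833 to 0.839 CPM.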

How the results depend on the processing

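No member was called under any of the 18 alternatives. Nrg1 stayed above 0 in each (0.269 to 0.402) without passing. The number of genes called over the whole table moved from 81 to 338 without a filter, 198 with DESeq2 and 16 once the Y-linked level was a covariate, and it ranged from 11 (without labelled-mutant library 3) to 142 (without labelled-mutant library 4) when a library was left out. The cause was not tested. The median log2 fold change of the members was 0.0195 to 0.0978 under the scalings, filters, tests and covariates, and -0.0679 to 0.129 when a library was left out. F13a1 no longer had an unadjusted p below 0.05 without WT library 1, WT library 2, labelled-mutant library 3 or labelled-mutant library 4. Same-numbered libraries had correlations of their deviations from the group means of 0.0998, 0.0474, 0.0447 and 0.121 across genes, each above those of differently numbered libraries (-0.0877 to 0.0195), a hint from the data and not from the labels. They were not all above 0.1, the level taken here for pairing, so the block was kept as an alternative. With the replicate block 93 genes and 0 members were called, the members' median was 0.0336, Nrg1 was at 0.347, and F13a1 had its lowest FDR (0.0976). In that edgeR fit 3 members had an unadjusted p below 0.05 (F13a1 0.00149, Csf1r 0.0169 and Mpeg1 0.0245), beside 1737 of all 15388 genes. The confidence intervals given above come from the fit without the block. Depth limits Ccl3, Ccl4, Ccl24 and Timd4, which had at most 13 counts in a library.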
